A study of Rattus norvegicus with 8 samples.

Results

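The heat shock chaperone genes described here are 10 genes chosen by their symbols, *Hspa1b*, *Hspa8*, *Hsph1*, *Dnajb1*, *Hsp90aa1*, *Hsp90ab1*, *Hspd1*, *Hspe1*, *Hspb1*, and *Hspb8*, out of 32883 genes in the expression table. All 10 were found and all 10 passed the filter on low counts, which kept 13937 genes. They were measured by sequencing of polyadenylated mRNA in the right Achilles tendon of 8 male wild-type Sprague-Dawley rats. In the running group, 4 rats were killed 12 hours after a single 1-hour run on an inclined treadmill (12 hours p.r.), and in the naïve control group (NC), 4 rats stayed in their cages and were killed at the same time. The runners were kept moving by an air flow and a mild electric stimulus, so running, its handling, and the stimulus cannot be told apart. Other time points were not analysed here. Each library is a whole tendon of 1 rat, named below by group and replicate number.

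Heat shock chaperones bind proteins that are unfolded or still folding and keep them from aggregating. HSP70 proteins such as those of *Hspa8* and *Hspa1b* take up such clients with the help of J-domain proteins such as that of *Dnajb1*, release them after nucleotide exchange, which the *Hsph1* product drives, and can pass them to HSP90. The small heat shock proteins hold clients without using ATP, and the chaperonin of *Hspd1* and *Hspe1* folds proteins inside mitochondria. Many of these genes are switched on by heat shock factor 1, which binds heat shock elements, inverted repeats of GAA units spaced by any pair of bases, near the start of the gene. Heat, muscle work, and mechanical strain are textbook inducers of this response, which is usually brief.

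The heat shock elements are shown first because they are the feature of sequence that the set is known for. Of the 10 genes, 8 matched a promoter in RefSeq (rat build GRCr8, 250 bases before to 50 bases after the start of the gene), and *Hspa1b* and *Hsp90aa1* did not match. The expression files use another build, Rnor_6.0, so the coordinates here belong to the RefSeq windows only. In the stretches below, written 5′ to 3′ on the strand of the gene, capitals mark each run of GAA and TTC units found by a search for GAANNTTC or TTCNNGAA, each of which reads the same on both strands, and for the longer GAANNTTCNNGAA or its reverse complement, which contains both shorter ones.
*Hspa8*, proximal: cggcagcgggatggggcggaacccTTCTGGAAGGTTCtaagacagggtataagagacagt
*Hspa8*, distal: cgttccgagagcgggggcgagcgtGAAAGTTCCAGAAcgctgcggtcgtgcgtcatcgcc
*Hsph1*: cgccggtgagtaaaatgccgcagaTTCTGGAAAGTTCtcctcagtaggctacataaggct
*Hspe1*: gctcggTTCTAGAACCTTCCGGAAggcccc
*Dnajb1*: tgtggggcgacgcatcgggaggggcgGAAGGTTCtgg
*Hspb1*: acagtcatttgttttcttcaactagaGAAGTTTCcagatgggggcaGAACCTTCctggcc
*Hspb8*: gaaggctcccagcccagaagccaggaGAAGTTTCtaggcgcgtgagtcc

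The *Hspa8* stretches lie at chr8:50080435-50080494 and chr8:50080277-50080336 on the plus strand, and their runs of 3 units end 43 and 201 bases before the start. The *Hsph1* stretch lies at chr12:10427308-10427367 on the plus strand, with 3 units ending 24 bases before the start. The run of *Hspe1*, at chr9:64084256-64084285 on the plus strand, has 4 units and lies between 65 and 48 bases before the start. *Hspd1* is transcribed away from *Hspe1* on the other strand, and the same bases lie in its window too, so that both genes share 1 run. In *Dnajb1* (chr19:41431142-41431178, minus strand) and *Hspb8* (chr12:45837259-45837307, plus strand) only runs of 2 units were found, the nearest ending 4 and 16 bases before the start. *Hspb1* (chr12:26432397-26432456, minus strand) held 2 separate runs of 2 units, and the window of *Hsp90ab1* held no match. The 3-unit motif was present in 4 of the 8 promoters and in 202 of 27457 promoters of the same length (0.736%), while a motif of 2 units, in 7 of the 8, was present in 15.4% of all promoters. A match is a description of letters and does not show that a factor binds there.

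Genes with the motif were looked at over the whole table, as a description. Of the 49 tested genes with the 3-unit motif, 26 had a lower and 23 a higher fitted level at 12 hours p.r., and their median log2 fold change was -0.02. For all 9931 tested genes matched to a promoter, the median was 0.02 and 46.0% were lower. At an unadjusted p under 0.05, 4 of the 49 genes passed (8.16%, 1 lower and 3 higher), against 9.24% of all matched genes. The 49 genes include *Hspa8*, *Hsph1*, *Hspd1*, and *Hspe1* of the set described here, and *Hspa8* is the 1 lower gene.

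In the resting tendon, the constitutive HSP70 and HSP90 genes were the most abundant of the set and the inducible HSP70 gene the least. Expressed per gene length as FPKM (fragments scaled by gene length and library depth), the NC level was 321 ± 32.9 (SD, n = 4) for *Hspa8*, the constitutive cytosolic HSP70, and 277 ± 25.2 for *Hsp90ab1*, the constitutive cytosolic HSP90. *Hspe1*, the lid of the mitochondrial chaperonin, followed at 192 ± 12.0 FPKM and *Hspb1*, the small heat shock protein HSP27, at 181 ± 36.4 FPKM. These neighbors did not differ beyond their spread, since *Hspe1* was above *Hspb1* in 3 of 4 NC rats. *Hspd1*, the barrel of the same chaperonin, stood at 65.5 ± 4.79 FPKM and *Hspb8*, a small heat shock protein that works with BAG3, at 45.5 ± 5.73 FPKM. *Dnajb1* had 25.6 ± 2.45 FPKM and *Hsph1* had 13.4 ± 0.850 FPKM. At the low end, *Hsp90aa1*, the inducible cytosolic HSP90, had 9.73 ± 7.14 FPKM and *Hspa1b*, a stress-inducible HSP70, had 2.85 ± 1.10 FPKM. *Hsph1* was above *Hsp90aa1*, and *Hsp90aa1* above *Hspa1b*, in 3 of 4 NC rats each, so the order of these last genes varied between rats. All other neighbors in this order kept it in 4 of 4 NC rats. How reads matching both *Hspa1b* and its near-identical neighbor *Hspa1a* were counted is not given in the sources used here. The level and rank of *Hspa1b* are uncertain to that extent.

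The order changed little at 12 hours p.r. *Hsp90ab1* (317 ± 21.3 FPKM) then ranked above *Hspa8* (259 ± 7.65 FPKM), *Hspb1* above *Hspe1*, and *Hsp90aa1* above *Hsph1*. Within a rat, *Hspa8* was between 69.2 and 185 times as abundant per length as *Hspa1b* in the NC group and between 136 and 261 times in the running group. These ratios carry the same uncertainty as the level of *Hspa1b*. The ratio of *Hspe1* to *Hspd1*, whose products work together, stayed between 2.81 and 3.10 in the NC rats and between 2.24 and 3.31 in the 12 hours p.r. rats.

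**Figure D1:**
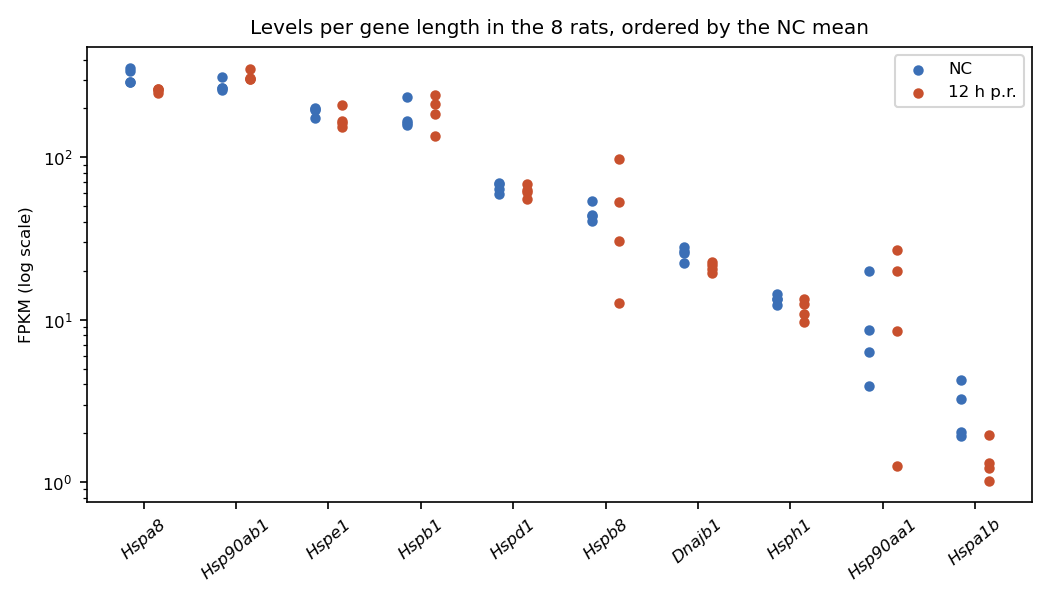
FPKM (log scale) of the 10 heat shock chaperone genes in each rat, ordered by the NC mean, with NC rats in blue and 12 hours p.r. rats in red. The means of the NC group run from 321 for *Hspa8* to 2.85 for *Hspa1b*, and the points of *Hsp90aa1* are spread widely in both groups, those of *Hspb8* in the running group.

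The libraries held between 7350509 and 12951397 reads on genes. The median was about 8459360 in the running group and about 11866900 in the NC group. All 7 tenocyte markers looked for had reads in every rat, including *Col1a1*, *Scx*, and *Tnmd*. Among the running rats, 12 hours p.r. rat 3 stands apart in muscle markers. Its 9 skeletal muscle markers found in the table (of 11 listed) summed to 56296 CPM (counts scaled to 1000000 reads). The sum was 2617 to 3141 CPM in the other running rats and 2525 to 10833 CPM in the NC rats. In the same rat, the 7 tenocyte markers summed to 13503 CPM, the lowest of all rats. In cartilage and bone markers, NC rat 3 and 12 hours p.r. rat 1 stand apart. The 8 markers summed to 1403 CPM in NC rat 3, to 695 CPM in 12 hours p.r. rat 1, and to 93.1 to 266 CPM in the other rats. *Bglap* had 3973 reads in NC rat 3, 1144 reads in 12 hours p.r. rat 1, and 2 to 6 reads in each of the others. The sums of the 5 endothelial markers (881 to 1072 CPM running, 948 to 1088 CPM NC), of the 6 leukocyte markers (181 to 474 CPM running, 210.3 to 615 CPM NC), and of the 6 adipocyte markers (2763 to 6788 CPM running, 3920 to 6675 CPM NC) overlapped between the groups. The sum over the 7 tenocyte markers was 13503 to 43365 CPM in the running rats and 23576 to 35973 CPM in the NC rats. Of these markers, *Scx* was higher in every running rat (45.2 to 60.6 CPM) than in every NC rat (20.3 to 43.9 CPM), which held for 3.52% of all genes tested. Its log2 fold change was 0.62 ± 0.22 (SE, adjusted p = 0.452 by edgeR). *Mkx* (0.78 ± 0.27, adjusted p = 0.452 by edgeR) and *Thbs4* (0.56 ± 0.23, adjusted p = 0.506 by edgeR) overlapped between the groups. All 3 had an unadjusted p under 0.05, as did 9.51% of all genes tested. *Comp* (0.60) had a higher and *Tnmd* (-0.07), *Fmod* (-0.06), and *Col1a1* (-0.11) a lower fitted level, none of them with an unadjusted p under 0.05. The part of these shifts in the results below was not tested.

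No heat shock chaperone gene passed an adjusted p of 0.05 at 12 hours p.r. by edgeR's quasi-likelihood test or by DESeq2, at which 1 gene (0.00718%) and 95 genes (0.682%) of the 13937 passed. By edgeR, 4 of the 10 genes had a higher and 6 a lower fitted level, with a median log2 fold change of -0.11, beside a median of 0.02 and a lower level in 45.8% of all genes tested. The lowest adjusted p of the 10 was 0.433 by edgeR and 0.116 by DESeq2. At an unadjusted p under 0.05, 3 genes passed, *Hspa1b*, *Hspa8*, and *Dnajb1*, all lower at 12 hours p.r., and 0 were higher, where 9.51% of all genes passed, 4.08% with a lower and 5.44% with a higher level. The 10 genes were chosen with earlier results of these data known, so this count is a description only. In bulk tissue, fewer cells of a type and less RNA per cell cannot be told apart.

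**Figure D2:**
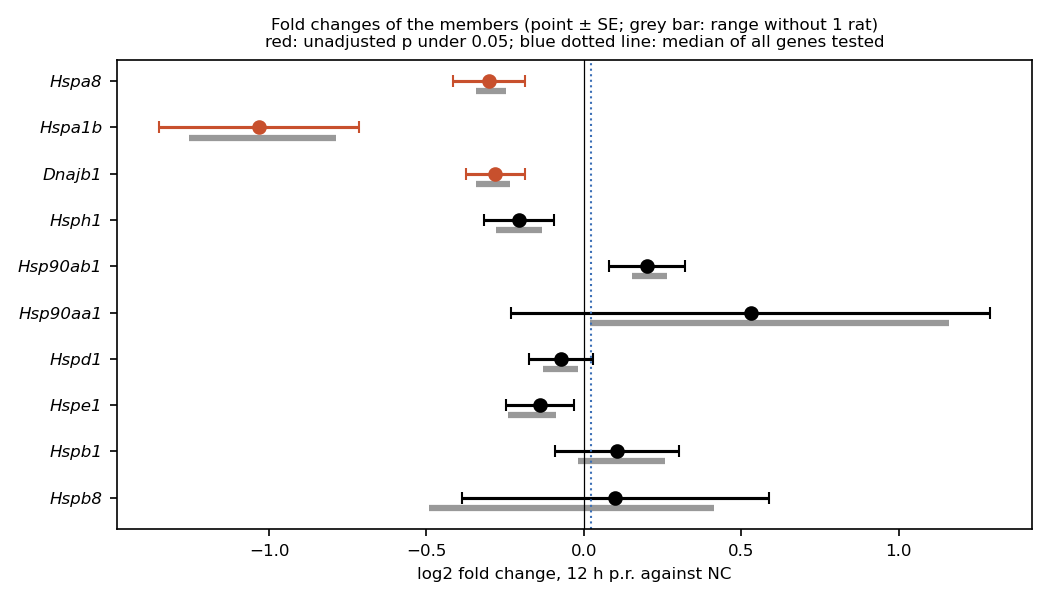
Points give the log2 fold change of each gene (12 hours p.r. over NC, by edgeR), with bars of 1 SE and, in gray beneath, the range when each of the 8 rats was left out in turn. The 3 genes in red (*Hspa1b*, *Hspa8*, and *Dnajb1*) had an unadjusted p under 0.05 and log2 fold changes of -1.03, -0.30, and -0.28, while the gray range of *Hspb8* and *Hspb1* crosses 0. The dotted line marks the median of all genes tested.

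*Hspa8*, which serves housekeeping folding and clathrin uncoating, was lower in every running rat than in every NC rat. Its CPM was 487, 504, 514, and 516 in 12 hours p.r. rats 1 to 4 and 692, 569, 662, and 569 in NC rats 1 to 4. The groups did not overlap, which held for 1 of the 10 genes and for 6.06% of all genes tested (2.55% with the running rats below). The means were 505 ± 13.1 CPM (SD, n = 4) and 623 ± 63.7 CPM (n = 4), a ratio of 0.811. The log2 fold change was -0.30 ± 0.11 (SE), with an adjusted p of 0.478 by edgeR and of 0.116 by DESeq2. An exact permutation test over the 70 splits of the rats gave a 2-sided p of 0.0286, the smallest that 4 rats against 4 allow. The running rats were also close to each other in *Hspa8*: their coefficient of variation was 2.58%, and 0.804% of the genes tested had a lower one in that group, against 10.2% in the NC group. Leaving out 1 rat at a time kept the log2 fold change between -0.34 and -0.25, but the unadjusted p stayed under 0.05 in 3 of the 8 fits. Without NC rat 3, it was -0.27, with an unadjusted p of 0.0636.

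*Hspa1b* had the largest fold change toward lower levels among the 10 genes, at few reads. It had 25, 23, 21, and 51 reads in the running rats and 59, 85, 66, and 94 reads in the NC rats. After scaling, this was 3.24, 3.03, 2.50, and 4.79 CPM at 12 hours p.r. and 4.73, 10.4, 4.98, and 7.99 CPM in the NC group. The groups met at 1 point only, 12 hours p.r. rat 4, which lay just above NC rat 1. The means were 3.39 ± 0.983 and 7.03 ± 2.70 CPM (SD, n = 4 each), a ratio of 0.482, and the log2 fold change was -1.03 ± 0.32 (SE) with an adjusted p of 0.433 by edgeR. The exact permutation test on log2(CPM + 0.5) gave p = 0.0571 (2-sided). Without 1 rat at a time the log2 fold change lay between -1.26 and -0.79, and the unadjusted p was under 0.05 in 8 of 8 fits. *Hspa1b* is nearly identical to its neighbor *Hspa1a*, which was not analysed here, and resembles *Hspa1l*, and how reads matching several genes were counted is not given in the sources used here. When the reads of *Hspa1l* were added to those of *Hspa1b*, the log2 fold change was -0.55, with an unadjusted p of 0.114 and an adjusted p of 0.620 by edgeR.

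*Dnajb1* encodes the J-domain protein that stimulates the ATPase of HSP70 and is itself a heat shock gene. The running rats had 51.4, 46.2, 43.6, and 48.8 CPM, and the NC rats had 59.2, 50.0, 58.4, and 63.0 CPM. NC rat 2 lay within the running group and the other 3 NC rats above it. The means were 47.5 ± 3.36 and 57.7 ± 5.48 CPM (SD, n = 4 each), and the log2 fold change was -0.28 ± 0.10 (SE) with an adjusted p of 0.443 by edgeR. The exact permutation p was 0.0571. Leaving out any 1 rat gave log2 fold changes between -0.34 and -0.24, with an unadjusted p under 0.05 in 8 of 8 fits, but the unadjusted p was 0.0735 without both 12 hours p.r. rat 3 and NC rat 3.

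*Hsph1*, the HSP110 protein that acts as a nucleotide exchange factor for HSP70, had 33.8, 43.2, 46.1, and 37.4 CPM in the running rats and 45.9, 42.7, 49.9, and 46.4 CPM in the NC rats. Running rats 1 and 4 lay below all NC rats, and running rats 2 and 3 lay within the NC range. The log2 fold change was -0.21 ± 0.11 (SE, adjusted p = 0.587 by edgeR). With 12 hours p.r. rat 3, the rat rich in muscle markers, left out, it was -0.28, and both *Hsph1* and *Hspe1* joined the 3 genes with an unadjusted p under 0.05, making 5 of 10 where 11.1% of all genes passed. With NC rat 3 left out as well, a choice made after seeing the data, only *Hspa1b* passed, 1 of 10 where 10.8% of all genes passed.

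From rat to rat within the groups, these 3 genes did not rise and fall together. After the mean of each group was removed, the Pearson r over the 8 rats was 0.12 for *Dnajb1* with *Hspa8*, -0.17 for *Hspa1b* with *Dnajb1*, and -0.74 for *Hspa1b* with *Hspa8*, given as a description. In the NC group, rat 2 had the most *Hspa1b* (10.4 CPM) and the least *Dnajb1* (50.0 CPM). The values of r with the group difference left in were 0.709, 0.546, and 0.405, and as the 3 genes were picked for a lower level at 12 hours p.r., nothing is read from them.

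The genes whose values followed *Hspa1b* most closely from rat to rat within the groups were *Polr2b*, a subunit of RNA polymerase II, with a Pearson r of 0.988 over 8 rats after each group's mean was removed, and the long intergenic noncoding RNA gene AC134224.3 (r = 0.976), followed by the pseudogene AABR07002997.1 (r = 0.966), *Pigv* (r = 0.962), and *Cep295nl* (r = 0.962). These are the nearest of 13937 genes and are given as a description. *Polr2b* had 161, 152, 151, and 178 CPM in the running rats and 163, 207, 167, and 190.1 CPM in the NC rats. AC134224.3 had 125, 137, 73.4, and 1479 CPM in the running rats and 79.3, 1725, 60.3, and 966 CPM in the NC rats, so the rats with the most of it, 12 hours p.r. rat 4 and NC rats 2 and 4, were also those with the most *Hspa1b* in their group.

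**Figure D3:**
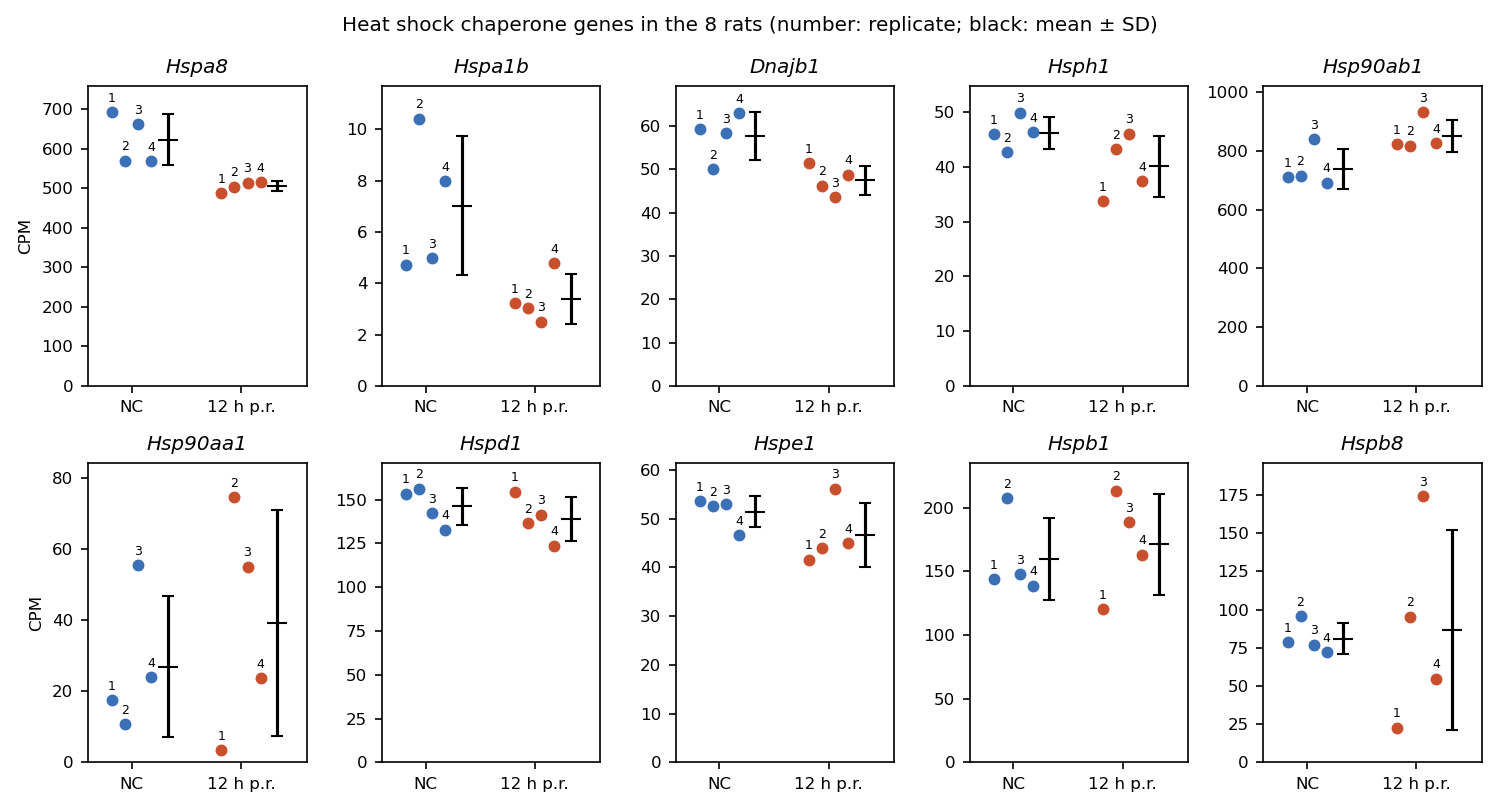
CPM of the 10 heat shock chaperone genes in each rat (blue, NC; red, 12 hours p.r.; the number is the replicate), with the mean ± SD of each group in black and a separate axis from 0 for each gene. The 4 running rats of *Hspa8* lie together between 487 and 516 CPM, below all NC rats, while the running rats of *Hsp90aa1* reach from 3.49 to 74.6 CPM.

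The 2 cytosolic HSP90 genes differed in how much they varied. *Hsp90ab1* had 824, 818, 933, and 827 CPM at 12 hours p.r. and 711, 716, 841, and 692 CPM in the NC group. The running rats lay above 3 of the 4 NC rats, and only NC rat 3 reached into their range. The log2 fold change was 0.20 ± 0.12 (SE, adjusted p = 0.638 by edgeR), and it stayed positive under all alternatives tried, between 0.15 and 0.27.

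*Hsp90aa1* had 3.49, 74.6, 55.1, and 23.7 CPM in the running rats and 17.5, 10.8, 55.5, and 24.0 CPM in the NC rats. This was a range of 21.3-fold within the running group and of 5.14-fold within the NC group. The coefficient of variation was 80.9% and 73.5%, higher than for 96.4% and 98.4% of all genes tested, whose medians were 16.4% and 14.3%. The NC rats lay inside the range of the running rats, and the log2 fold change of 0.53 had a SE of 0.76 (adjusted p = 0.855 by edgeR). It moved from 0.02 to 1.16 as single rats were left out. The ratio of *Hsp90ab1* to *Hsp90aa1* in FPKM ran accordingly from 11.4 to 244 in the running rats and from 15.7 to 68.8 in the NC rats. The lowest value, 3.49 CPM, rests on 27 reads in 12 hours p.r. rat 1 and the highest on 566 reads in rat 2. Genes with many processed copies in the genome, such as *Hsp90aa1*, *Hspa8*, and *Hspd1*, can lose reads to those copies or gain them, and their levels are uncertain to that extent.

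The mitochondrial chaperonin genes overlapped between the groups. *Hspd1* had 155, 137, 141, and 124 CPM in the running rats and 153, 156, 142, and 133 CPM in the NC rats, which overlapped (log2 fold change -0.07 ± 0.10 SE, adjusted p = 0.850 by edgeR). *Hspe1* had 41.5, 44.0, 56.2, and 45.0 CPM in the running rats and 53.5, 52.6, 52.9, and 46.6 CPM in the NC rats. Running rat 3 was the highest of all 8, and the other 3 running rats were the lowest. Its log2 fold change was -0.14 ± 0.11 (SE, adjusted p = 0.713 by edgeR) with all rats and -0.24 without 12 hours p.r. rat 3 (adjusted p = 0.407 by edgeR).

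*Hspe1* was the gene of the 10 that moved most closely with the muscle markers. Its Pearson r with the mean log2 CPM of the muscle markers was 0.868 over the 8 rats (exact permutation p = 0.00709, adjusted 0.0544 over 23 relations). Its Spearman rho was 0.857 (exact permutation p = 0.0107, adjusted 0.0821). Without the 2 rats farthest from the median of the muscle score, r was 0.778. After each group's mean was removed, r over all 8 rats was 0.936, given as a description without a test. In the same way, r with the muscle score was 0.774 for *Hsp90ab1*, -0.771 for *Dnajb1*, 0.728 for *Hspb8*, and 0.572 for *Hsph1*. It was 0.529 for *Hspb1*, 0.431 for *Hsp90aa1*, 0.275 for *Hspa8*, -0.254 for *Hspa1b*, and 0.164 for *Hspd1*. *Hspd1*, on the same promoter region, had an r of 0.194 with the muscle score (exact permutation p = 0.640, adjusted 0.669) and a rho of 0.167 (p = 0.703, adjusted 0.770), with r = 0.358 without the same 2 rats. The 2 chaperonin genes themselves had an r of 0.291 with each other (exact permutation p = 0.478, adjusted 0.550) and a rho of 0.143 (p = 0.752, adjusted 0.786), and r was -0.000203 without 2 rats. With the muscle score as a covariate, the log2 fold change of *Hspe1* was -0.12 ± 0.08 (SE, adjusted p = 0.591 by edgeR), and without it -0.14 ± 0.11. The part of muscle tissue in the values of *Hspe1* was not tested beyond these relations and this fit.

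Of the 2 small heat shock genes, *Hspb8* varied widely among the running rats and *Hspb1* did so much less. *Hspb8* had 22.8, 95.2, 174, and 54.6 CPM at 12 hours p.r. and 78.5, 95.7, 77.1, and 72.2 CPM in the NC group. All NC rats lay inside the range of the running rats, which were lowest in rat 1 and highest in rat 3. The coefficient of variation was 75.4% in the running group, higher than for 95.8% of all genes, and 12.6% in the NC group. The log2 fold change was 0.10 ± 0.49 (SE, adjusted p = 0.965 by edgeR), and the mean difference in log2(CPM + 0.5) had the other sign, -0.25 (exact permutation p = 0.686). Without 12 hours p.r. rat 3 the log2 fold change was -0.49 (adjusted p = 0.668 by edgeR).

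*Hspb1*, which guards actin filaments, had 120.2, 213, 189, and 163 CPM in the running rats and 144, 207, 148, and 139 CPM in the NC rats. Its coefficient of variation was 23.2% in the running group and 20.2% in the NC group. The groups overlapped, with a log2 fold change of 0.10 ± 0.20 (SE, adjusted p = 0.895 by edgeR). Running rat 1 was the lowest of all rats in both small heat shock genes. *Hspb8* and *Hspb1* had an r of 0.726 over the 8 rats (exact permutation p = 0.0285, adjusted 0.112) and a rho of 0.738 (p = 0.0458, adjusted 0.264), and r was 0.594 without the 2 farthest rats.

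The 6 other genes listed as small heat shock genes (*Cryab*, *Hspb2*, *Hspb3*, *Hspb6*, *Hspb7*, and *Hspb11*) all had a lower fitted level at 12 hours p.r., and none had an unadjusted p under 0.05 with all rats. Without 12 hours p.r. rat 3, 3 of them passed it, *Hspb3* (log2 fold change -1.88), *Hspb6* (-1.13), and *Hspb2* (-0.64), with adjusted p between 0.361 and 0.438 by edgeR. With all rats, *Cryab* and *Hspb6* passed it when the cartilage and bone score was a covariate or the replicate number a block, as did *Hspb7* with the block. Of all genes, 11.1% passed without that rat, 9.56% with that covariate, and 6.99% with the block. The median log2 fold change of the 6 genes was -0.44. All but *Hspb11*, whose product works in cilia rather than as a chaperone, are known from muscle. *Cryab*, the alphaB-crystallin chaperone of desmin filaments, had 33.1, 316, 212, and 77.0 CPM in the running rats and 151, 490.1, 280.2, and 349 CPM in the NC rats (log2 fold change -0.99 ± 0.63 SE, adjusted p = 0.652 by edgeR). *Hspb6* had 42.2, 165, 199.8, and 67.4 CPM in the running rats and 111 to 304 CPM in the NC rats. *Hspb7* had 22.6, 295, 149, and 74.2 CPM in the running rats and 114 to 406 CPM in the NC rats. In these 3 genes, as in *Hspb8*, running rats 1 and 4 were the lowest of all rats.

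The values of these genes were set beside markers of slow muscle fibers. *Myh7*, the slow myosin heavy chain, had 1.55, 529, 51.2, and 73.5 CPM in the running rats and 238, 757, 497, and 745 CPM in the NC rats, and *Tnnt1*, slow troponin T, had 1.29, 314, 30.5, and 60.1 CPM and 207, 560.1, 230.0, and 451 CPM. Both were lowest in running rat 1 and highest in NC rat 2. No muscle marker in the table had an unadjusted p under 0.05 by edgeR. *Acta1* (log2 fold change 1.38), *Myh1* (1.49), *Tnnt3* (1.63), *Tnni2* (1.49), *Tnnc2* (1.35), *Ckm* (2.04), and *Mylpf* (1.41) had a higher fitted level at 12 hours p.r. Only the 2 slow markers had a lower one, -1.77 for *Myh7* and -1.84 for *Tnnt1*. The mean of the 2, a score chosen after their values were seen, had an r of 0.902 with *Cryab* over 8 rats (exact permutation p = 0.00575, adjusted 0.0544 over 23 relations) and a rho of 0.929 (exact permutation p = 0.00223, adjusted 0.0513), with r = 0.980 without the 2 farthest rats. For *Hspb7*, r was 0.900 (exact permutation p = 0.00526, adjusted 0.0544), rho was 0.857 (p = 0.0107, adjusted 0.0821), and r without those rats was 0.860. For *Hspb6*, r was 0.807 (exact permutation p = 0.0152, adjusted 0.0871), rho was 0.619 (p = 0.115, adjusted 0.338), and r without those rats was 0.951. For *Hspb1*, r was 0.496 (exact permutation p = 0.214, adjusted 0.379), rho was 0.381 (p = 0.360, adjusted 0.547), and r without those rats was 0.237. The same score had an r of 0.614 with *Hspb8* (exact permutation p = 0.138, adjusted 0.351; rho = 0.333, p = 0.428, adjusted 0.547) and of 0.810 without the 2 rats. With the score of all muscle markers, *Hspb8* had an r of 0.733 (exact permutation p = 0.0293, adjusted 0.112; rho = 0.714, p = 0.0576, adjusted 0.265), and r was 0.587 without the 2 rats farthest in that score. That wider score, which includes fast fibers, had an r of 0.422 with *Cryab* (exact permutation p = 0.300, adjusted 0.408; rho = 0.214, p = 0.619, adjusted 0.712; r without 2 rats 0.491) and of 0.448 with *Hspb7* (exact permutation p = 0.273, adjusted 0.408; rho = 0.357, p = 0.389, adjusted 0.547; r without 2 rats 0.605). After each group's mean was removed, r with the slow score was 0.855 for *Cryab*, 0.898 for *Hspb7*, 0.715 for *Hspb6*, 0.677 for *Hspb8*, and 0.805 for *Hspb1*. None of the 23 relations had an adjusted p under 0.05.

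**Figure D4:**
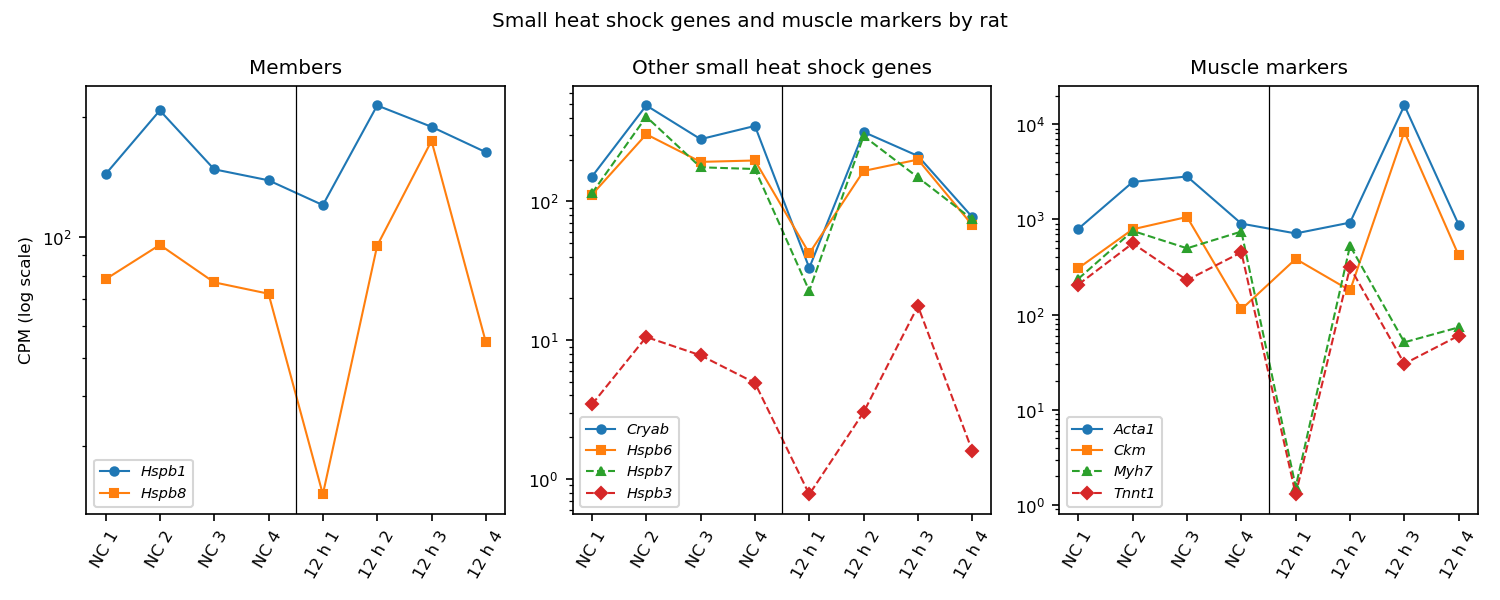
CPM (log scale) in each rat of *Hspb1* and *Hspb8* (left), of the other small heat shock genes *Cryab*, *Hspb6*, *Hspb7*, and *Hspb3* (middle), and of the muscle genes *Acta1*, *Ckm*, *Myh7*, and *Tnnt1* (right), with lines that join the values of 1 gene and imply no order of the rats. The small heat shock genes and the slow muscle genes *Myh7* and *Tnnt1* are lowest in 12 hours p.r. rat 1, and *Acta1* reaches 15730.1 CPM in 12 hours p.r. rat 3.

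Beyond the 10 genes, 77 other chaperone and cochaperone genes in 9 groups were looked up, of which 76 were in the table and 74 were tested. Of these, 34 had a higher and 40 a lower fitted level at 12 hours p.r., with a median log2 fold change of -0.03. None had an adjusted p under 0.05 by edgeR (lowest 0.477), and 4 had an unadjusted p under 0.05 (5.41%, against 9.51% of all genes), 2 in each direction. In this wider set, the higher genes were *Hspa12b*, a distant HSP70 relative known from endothelium, and *Dnajb2*, a J-domain protein. The lower genes were *Dnajb4*, a J-domain protein close to *Dnajb1*, and *Hspa13*, an HSP70 relative of the secretory pathway.

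*Hspa12b* had 69.5, 53.2, 63.7, and 58.3 CPM in the running rats and 52.0, 52.4, 47.4, and 52.6 CPM in the NC rats, and the groups did not overlap (log2 fold change 0.26 ± 0.10 SE, adjusted p = 0.477 by edgeR). *Dnajb2* had 60.3, 61.5, 72.2, and 58.3 CPM against 56.4, 55.4, 52.8, and 50.0 CPM, again with no overlap (log2 fold change 0.23 ± 0.09 SE, adjusted p = 0.486 by edgeR). In all, the groups did not overlap for 6 of the 74 genes, 3 with the running rats above (these 2 and *Cdc37*) and 3 with them below (*Ptges3*, *Cct3*, and *Cct8*), that is 4.05% in each direction, against 3.52% of all genes above and 2.55% below. *Dnajb4* had 47.6, 66.3, 73.9, and 52.6 CPM in the running rats and 76.1, 76.6, 71.9, and 89.9 CPM in the NC rats, with only running rat 3 inside the NC range (log2 fold change -0.39 ± 0.15 SE, adjusted p = 0.477 by edgeR). *Hspa13*, at -0.22 ± 0.10 SE (adjusted p = 0.524 by edgeR), overlapped between the groups. Without 12 hours p.r. rat 3, the unadjusted p was 0.0524 for *Hspa12b*, 0.0808 for *Dnajb2*, and 0.111 for *Hspa13*, and without NC rat 3, *Hspa12b* and *Dnajb2* did not pass 0.05 either.

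By family, the HSP70 and HSP110 genes had 6 higher and 3 lower of 9 tested (median log2 fold change 0.02), and the J-domain genes 4 higher and 8 lower of 12 (median -0.03). The HSP90 family and its cochaperones had 4 higher and 8 lower of 12 (median -0.06), and the nucleotide exchange factors and cochaperones of HSP70 had 5 higher and 1 lower of 6 (median 0.10). The cytosolic chaperonin CCT, which folds actin and tubulin, had 2 higher and 6 lower of 8 (median -0.09), and the other mitochondrial genes of protein quality control had 3 higher and 4 lower of 7 (median -0.00277). None of these groups except the HSP70 and the J-domain families had a gene with an unadjusted p under 0.05.

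The heat shock factors, listed with the factor-binding protein gene *Hsbp1*, had 3 higher and 1 lower of 4 tested (median 0.07). *Hsf1* had 28.6, 28.7, 34.5, and 30.1 CPM in the running rats and 27.2, 28.8, 26.2, and 29.0 CPM in the NC rats (log2 fold change 0.13 ± 0.09 SE, adjusted p = 0.679 by edgeR). HSF1 activity is set mainly at the protein, which mRNA does not show. *Hsf2* had 20.1 to 30.2 CPM in the running rats and 25.7 to 41.7 CPM in the NC rats (log2 fold change -0.35 ± 0.18 SE, adjusted p = 0.581 by edgeR). *Bag3*, the partner of *Hspb8* and a heat shock gene itself, had 58.1 to 67.1 CPM in the running rats and 63.6 to 78.7 CPM in the NC rats (log2 fold change -0.12 ± 0.10 SE, adjusted p = 0.712 by edgeR).

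Chaperones of the endoplasmic reticulum, which fold secreted proteins such as collagen, had 7 higher and 3 lower of 10 tested (median 0.09), none with an unadjusted p under 0.05. *Hspa5*, the HSP70 of that compartment, had 586, 818, 350.3, and 675 CPM in the running rats and 551, 475, 616, and 515 CPM in the NC rats. Running rat 3, with the lowest sum of tenocyte markers, was the lowest of all, and running rats 2 and 4 were above all NC rats. *Serpinh1*, the collagen chaperone HSP47, had 1163, 838, 754, and 928 CPM in the running rats and 931, 743, 1069, and 784 CPM in the NC rats (log2 fold change 0.06 ± 0.18 SE, adjusted p = 0.934 by edgeR). Without 12 hours p.r. rat 3, 14 of the other chaperone genes had an unadjusted p under 0.05, 4 higher and 10 lower, where 11.1% of all genes passed. The 10 lower were *Hspb3*, *Hspb6*, and *Hspb2* (values above), *Dnajb5* (log2 fold change -0.78), *Hspa1l* (-0.69), *Dnajb4* (-0.50), *Dnaja4* (-0.47), *Clpx* (-0.26), *Ptges3* (-0.21), and *Dnaja2* (-0.20), which fall into the small heat shock, J-domain, and other lists. The 4 higher were *Hsp90b1* (log2 fold change 0.47), *Hspa5* (0.36), *Pdia4* (0.36), and *Calr* (0.34), all chaperones of the endoplasmic reticulum, and their adjusted p was between 0.380 and 0.445 by edgeR. This setting was 1 of the 8 that leave out a rat, and these genes are named after their values were seen.

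**Figure D5:**
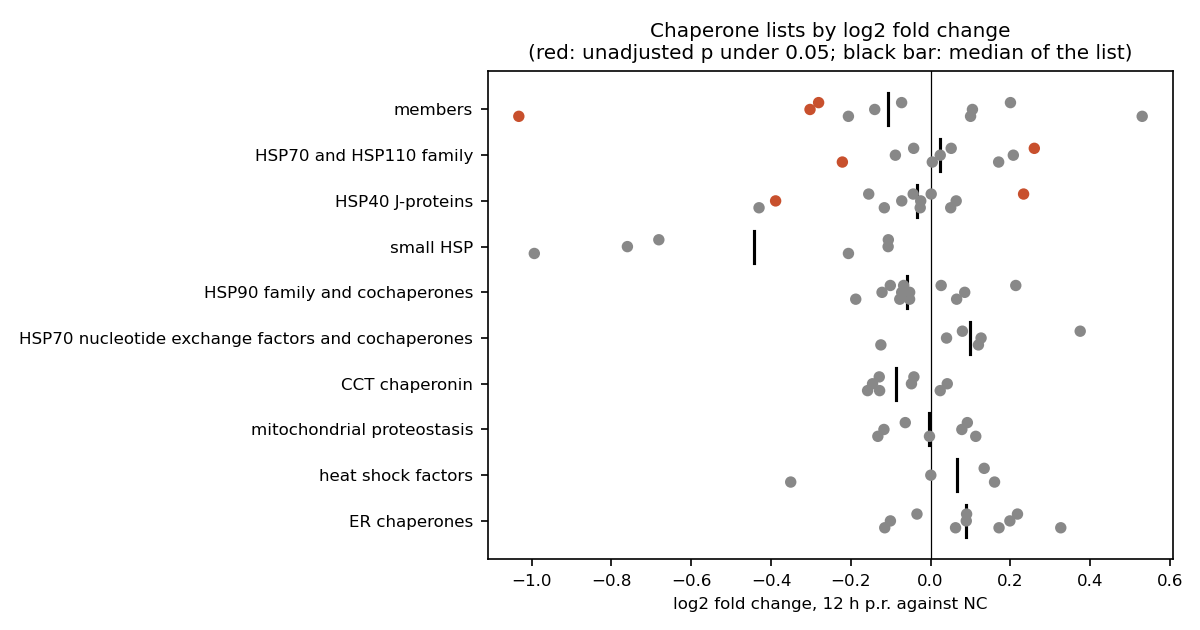
Points give the log2 fold change (12 hours p.r. over NC, by edgeR) of each of the 10 heat shock chaperone genes ("members") and of the 9 other groups, with a black bar at the median of each group and genes with an unadjusted p under 0.05 in red. Most points lie near 0, and the other small heat shock genes have the lowest median, -0.44.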

How the data were processed

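Counts, FPKM values, and sample labels were taken for 4 rats at 12 hours p.r. and 4 NC rats. Reads were aligned by the authors with HISAT2 2.1.0 (genome build Rnor_6.0). Per-gene read counts came from featureCounts 1.6.3 and were deposited as integers, not normalized. The deposited FPKM correct these numbers for gene length and for a DESeq2 size factor of each rat. The strand setting of the counting is not given in the sources used here. A deposited table of the authors' comparison (DESeq2 1.30.1, fold changes and p-values) was not used.

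Genes passing filterByExpr were tested with edgeR 4.0.16 (TMM factors, quasi-likelihood test, Benjamini-Hochberg adjustment over all 13937 genes), in R 4.3.3. CPM use TMM-scaled library sizes, and scores are means of log2 CPM with a prior count of 2. Exact permutation tests (2-sided, 70 splits, log2(CPM + 0.5)) and correlations used scipy 1.17.1. Alternatives were DESeq2 1.42.0, limma 3.58.1 on FPKM, other filters and factors, marker scores as covariates, a replicate block, and each rat left out. The tests were tested on simulated data.

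The 10 genes, the other lists, and the tests were chosen with earlier results of these data known. The genes named by rule are the 10, *Hspa1a*, *Bag3*, *Cryab*, *Hsf1*, *Hsf2*, *Hspa5*, and *Serpinh1*, up to 5 of the other lists in each direction with an unadjusted p under 0.05, the 5 nearest to *Hspa1b*, and markers that move with a member. Other genes were chosen after their values were seen. Of the listed genes, *Hspa1a* was not matched, and *Bag5* and *Hsf5* were not tested because of low counts. Nothing says that the rats of a group differ in batch. The p-values of group differences set them against the spread between rats, and those of correlations set them against other pairings of the values.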

Additional observations from a re-analysis of the deposited data

Results flagged for a closer look

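In 20 groups of 4 rats (10 genes in 2 groups), 3 had a rat far from the others by Dixon's test at the 95% level, where about 1 is found by chance. *Hspb1* was highest in NC rat 2, at 7.70 on the log2(CPM + 0.5) scale (207 CPM), with the next rat at 7.21 (148 CPM). NC rat 2 was also the highest of all rats in *Cryab*, *Hspb6*, and *Hspb7*. *Hsp90ab1* was highest in 12 hours p.r. rat 3, at 9.87 (933 CPM), with the next rat at 9.69 (827 CPM), and this is the rat with the most muscle markers. *Hspe1* was lowest in NC rat 4, at 5.56 (46.6 CPM), with the next rat at 5.73 (52.6 CPM), and NC rat 4 had the lowest sum of muscle markers, 2525 CPM. The part of these tissues in the values was not tested.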

How the results depend on the processing

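No heat shock chaperone gene had an adjusted p under 0.05 under any alternative. The number with an unadjusted p under 0.05 was 3 by edgeR and between 2 and 5 when 1 rat was left out, 5 without 12 hours p.r. rat 3. It was 1 without both 12 hours p.r. rat 3 and NC rat 3, a choice made after seeing the data. For the other chaperone genes, the number is given with the share of all genes that passed in the same fit. It was 4 by edgeR (9.51%), 7 by DESeq2 (9.28%), 7 with limma on log2(FPKM + 1) (8.08%), and 12 without the same 2 rats (10.8%). With 1 rat left out it was between 1 and 14, where 6.28% to 11.1% of all genes passed. The 14 came without 12 hours p.r. rat 3 (11.1%), and the 1 without 12 hours p.r. rat 1 (8.07%) or NC rat 4 (6.28%). The log2 fold change of *Hspb8* (0.10) was -0.24 and -0.26 with limma at pseudocounts of 1 and 0.1 FPKM, -0.23 with the replicate block, -0.020 and -0.44 with the muscle and the cartilage score as covariates, between -0.49 (without 12 hours p.r. rat 3) and 0.42 with 1 rat left out, and -0.51 without the 2 rats. That of *Hspb1* (0.10) was -0.00033 with the cartilage score and between -0.019 (without 12 hours p.r. rat 2) and 0.26 with 1 rat left out. The cause was not tested.

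Same-numbered rats correlated at 0.0699, -0.193, 0.116, and 0.0818 in their deviations from the group means, and 1 of 4 correlated best with its own number, so the numbers do not pair the rats. With the replicate block, 2 of the 10 genes had an unadjusted p under 0.05 (*Dnajb1* and *Hspa1b*), where 6.99% of all genes passed. At 21 to 94 reads, *Hspa1b* is the gene most limited by depth.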

Other observations

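*Hspa1l*, an HSP70 gene beside *Hspa1b* that is best known from the testis, had 8.09 CPM in 12 hours p.r. rat 3 and between 1.45 and 3.80 CPM in the other 7 rats (log2 fold change 0.21 ± 0.53 SE, adjusted p = 0.924 by edgeR with all rats). Without 12 hours p.r. rat 3, its log2 fold change was -0.69 (adjusted p = 0.425 by edgeR). *Hspb3*, a small heat shock gene of muscle, had 17.6 CPM in the same rat and between 0.777 and 10.5 CPM in the others, and its log2 fold change was -0.21 with all rats and -1.88 without that rat (adjusted p = 0.361 by edgeR). Both genes were thus highest in the rat with the most muscle markers.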
